A study of Homo sapiens with 4 samples.

Results

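The siRNAs si4 and si5, both against ZSCAN5A, were each compared with a scrambled control siRNA in HEK-293 cells, an established line derived from human embryonic kidney. The cells received 10 nM of siRNA with a lipid transfection reagent, RNA was collected 48 h later, and 1 mRNA library was sequenced per treatment. The comparison used 3 of the 4 libraries of the series. The other library, from cells given a ZSCAN5B siRNA called si1, is set beside them only as a second view of the same control. A gene row entered the comparison when it reached 1 FPKM (the number of sequenced fragments divided by transcript length in kb and by library size) in at least 1 of the 3 libraries and was above 0 in all of them. Of 24934 rows, 12965 passed, and 9915 of these moved in the same direction with both siRNAs. At the edge of the limit, ADPRHL1 passed with 0.7306, 0.8734 and 1.0012 FPKM with si4, si5 and the control, and ZNF559-ZNF177 did not, with 0.5375, 0.9996 and 0.9633 FPKM. A further 79 rows were at 1 FPKM or more in a library and listed at 0 in another, and these were left out. In the totals a row was counted as lower or higher when the ratio to the control passed 1.5-fold with si4 and with si5. For gene lists, lower or higher with both siRNAs means a ratio of any size in that direction. List members past 1.5-fold with both are given separately. There was a single control library, so no p-value was computed, and si4 and si5 are different reagents rather than replicates of 1 treatment. Any property of the control library itself enters both ratios in the same way.

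ZSCAN5A encodes a zinc finger protein with a SCAN domain, a protein interaction module found in a large family of mammalian transcription factors. It belongs to a cluster of closely related ZSCAN5 genes on chromosome 19 that arose by duplication in primates. An siRNA is loaded into an Argonaute protein, which cuts transcripts that pair with the whole guide strand. Guides can also lower other transcripts that pair only with the seed, the stretch near the 5′ end of the guide that microRNAs use to find their targets, most often in the 3′ UTR.

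The target sequences of both siRNAs are shown because they decide which transcripts the reagents can pair with. Read 5′ to 3′ on the transcript strand, the si4 target lay at chr19:56733332-56733352 and the si5 target at chr19:56733307-56733327 of GRCh37, both on the minus strand and both in the coding sequence of the last exon of ZSCAN5A, exon 6 of 6.
si4 target: cgagaagaggtttacgtgtaa
si5 target: aagctagtcatccacaagaga
The guide strands that pair with these targets are given with bases 2 to 8, the seed, in capitals.
si4 guide: tTACACGTaaacctcttctcg
si5 guide: tCTCTTGTggatgactagctt
The paralog with the closest sites was ZSCAN5DP, annotated without a coding sequence, at chr19:56758443-56758463 for si4 and chr19:56758468-56758488 for si5, both on the plus strand. Bases that differ from the target are in capitals.
ZSCAN5DP, si4 site: cAaTaagaggtttacgtgtaa
ZSCAN5DP, si5 site: aagctagCcatccacaTgaga
Counted from 1 at the 5′ end of the target, the si4 site differed by G2A and G4T and the si5 site by T8C and A17T. The best sites in ZSCAN5B had 6 mismatches with si4 and 5 with si5, and those in ZSCAN5C had 6 and 4. Transcript levels of ZSCAN5C and ZSCAN5DP were not analysed here. The paper describes a paralog ZSCAN5D with a detected protein, and its quantitative RT-PCR had ZSCAN5D transcript below the control with si4 and with si5. Whether the annotated ZSCAN5DP is that gene was not examined here.

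ZSCAN5A itself (row at chr19:56732679-56739659) was at 0.730 FPKM for si4 and 0.713 for si5, beside 2.53 for si1 and 2.42 for the control. Both ZSCAN5A siRNAs thus left approximately the same level, 30.2% of the control with si4 and 29.5% with si5. The gap between the siRNAs was 0.03 on the log2 scale, against a fall of 1.73 and 1.76 to the control. Approximately 276 fragments stood behind the control value, a number approximated from FPKM, transcript length and depth. On such numbers the Clopper-Pearson 95% intervals of the ratios were 23.6% to 38.4% for si4 and 23.7% to 36.6% for si5. The approximation can be off, as for ZSCAN5B, where it gave 9.0 control fragments and 15 were read from the values. Intervals here cover counting error only. ZSCAN5A was 1 of only 4 lower rows that were also under 1/1.5 of the si1 library with both siRNAs. ZSCAN5B, at 0.0331 FPKM for si4 and 0.0663 for si5, beside 0.0948 for si1 and 0.0903 for the control, was below the expression limit in every library. Its values corresponded to 6, 17, 16 and 15 fragments. The si4 value was 36.6% of the control, with an interval of 11.6% to 99.9% that ended just under the control level. The si5 value was 73.4% (34.5% to 158%) and the si1 value 105% (48.6% to 228%). At this depth no change of ZSCAN5B was resolved with si5 or si1. By quantitative RT-PCR the paper reported some over-expression of ZSCAN5B with si4, the opposite direction. With si1 it reported a knockdown, to a level below the si1 interval given here.

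FPKM keeps no read totals, but the values of genes with few reads fell on whole-number proportions. By these proportions the si4 and si5 libraries held 1.09 and 1.54 times the fragments of the control, and the libraries held approximately 53000000 to 82000000 fragments each. Of a list of genes known from HEK-293, 6 of 6 epithelial, 5 of 8 neural and intermediate filament and 5 of 7 kidney genes passed the limit. Among them were KRT8 at 181, 163, 199 and 148 FPKM and NEFL at 38.7, 37.0, 45.2 and 41.6 FPKM with si4, si5, si1 and the control. Of 9 markers of blood, endothelium and fibroblasts in the table, 1 passed the limit, the collagen gene COL1A1, at 1.10, 1.38 and 1.85 FPKM with si4, si5 and the control.

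Changes past 1.5-fold with both siRNAs were mostly falls. Of the 12965 rows, 211 were lower (1.63%) and 32 were higher (0.247%). Without a size limit, 5420 rows were lower with both (41.8%) and 4495 were higher with both (34.7%). The median log2 ratio over all rows was -0.01 with si4 and -0.03 with si5. Only 15 of the lower and 8 of the higher rows passed 2-fold with both siRNAs. The median absolute log2 difference between si4 and si5 was 0.11 over all rows. They differed by more than 1.5-fold in 331 rows (2.55%). Both ratios share the control library, so the number of rows that moved in the same direction, and the slope in the plot of si4 against si5 ratios, also hold what is particular to that library.

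**Figure D1:**
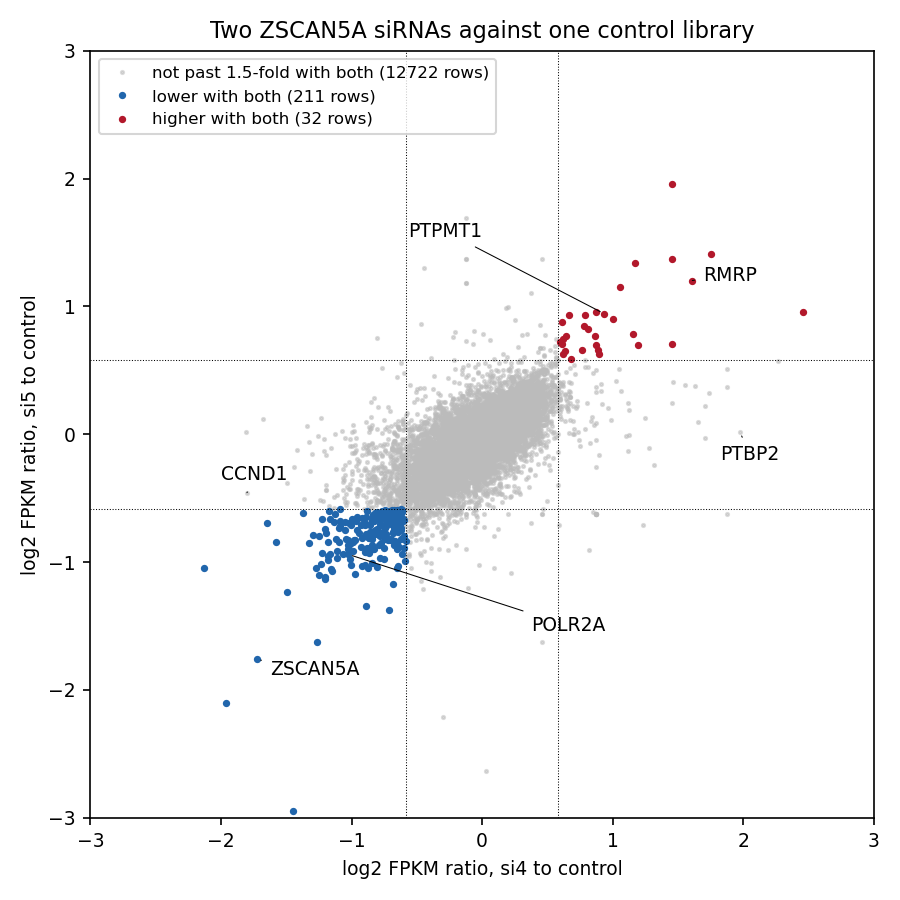
Log2 FPKM ratio to the scrambled control with si4 (horizontal axis) and si5 (vertical axis) for each gene row, with 5 of 12965 rows outside the axes and dotted lines at 1.5-fold. The 211 rows lower past 1.5-fold with both siRNAs (blue) outnumber the 32 higher rows (red). ZSCAN5A lies in the lower left corner at -1.73 and -1.76, and PTBP2 and CCND1 moved mainly with si4.

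The 12 largest falls are those of genes that reached 5 FPKM, short RNA genes left out, ranked by the siRNA whose ratio was nearer the control. POLR2A, the largest subunit of RNA polymerase II (chr17:7387698-7417935), was at 14.0 FPKM for si4, 14.9 for si5 and 16.2 for si1, against 28.5 for the scrambled siRNA. It was 49.2% of the control with si4 (interval 47.5% to 50.9%) and 52.1% with si5 (50.6% to 53.7%). These intervals rest on approximated fragment numbers. MLL2 (now KMT2D), a histone H3 lysine methyltransferase of enhancers, was at 2.52 and 2.96 FPKM with si4 and si5 against 5.65, with 3.05 for si1. SRRM2, a large scaffold protein of nuclear speckles, was at 24.1 and 23.5 FPKM against 44.6. In POLR2A and MLL2 the si1 library lay beside si4 and si5, and the control stood apart.

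The same held for EP400, a chromatin remodelling ATPase, at 3.75, 3.72, 3.83 and 6.91 FPKM with si4, si5, si1 and the control. RERE, a corepressor that carries atrophin sequence, was at 5.21, 5.28, 5.74 and 9.33 FPKM. PRR12, a large proline-rich nuclear protein, was lower as well, at 3.61, 4.03, 4.02 and 7.14 FPKM. As deposited, none of the siRNA values in these 3 genes came within 1.5-fold of the control. Once the median change of genes of like length and GC content was subtracted, none of the 3 passed with both siRNAs. The corrected log2 ratios were -0.52 and -0.58 for EP400, -0.48 and -0.51 for RERE and -0.66 and -0.51 for PRR12. MLL2 and SRRM2 did not pass after this correction either. POLR2A still passed, as did BCL2L11, TMEM64 and NPIPL3, described next.

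BCL2L11, which encodes the pro-apoptotic protein BIM, was at 11.2 FPKM for si4 and 9.99 for si5, beside 10.7 for si1 and 20.1 for the control. TMEM64, a membrane protein gene, was at 5.84, 6.50 and 11.8 FPKM with si4, si5 and the control, and at 3.18 with si1, the lowest of the 4 libraries. Also among the 12 largest falls were LOC100132247, LOC100288069 and NPIPL3. LOC100132247 was at 4.46, 4.36 and 8.03 FPKM and NPIPL3 at 4.87, 4.68 and 8.70 FPKM with si4, si5 and the control. Both belong to the NPIP family of near-identical copies on chromosome 16, and all 4 NPIP rows that passed the limit were lower with both siRNAs, with a median log2 ratio of -0.83. POM121 and POM121C, also near-identical copies, were both lower past 1.5-fold, as were 3 of 4 SPDYE rows. All 4 SPDYE rows were lower with both siRNAs. Fragments can be assigned among such copies in more than 1 way, so the level of a single copy is uncertain. LOC100288069, at 3.00, 3.59 and 6.43 FPKM, lacked an annotated match.

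**Figure D2:**
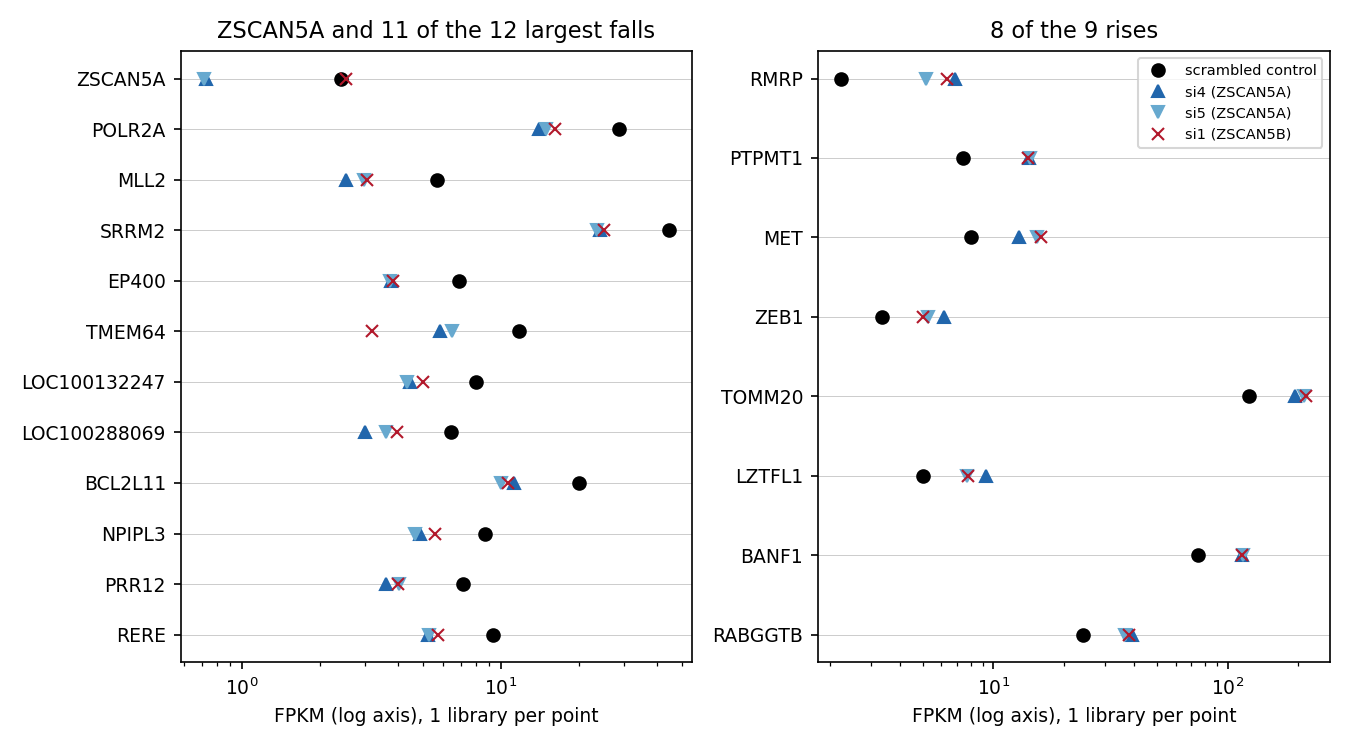
FPKM on a log axis for ZSCAN5A and 11 of the 12 largest falls (left) and for 8 of the 9 rises that reached 5 FPKM (right), with 1 point per library. For every gene shown except ZSCAN5A the si1 library lies on the same side of the control as si4 and si5, for example POLR2A at 14.0, 14.9 and 16.2 against 28.5.

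Rises were fewer. Only 9 higher genes reached 5 FPKM once short RNA genes were left out by symbol, and 8 of these are described. The symbol rule did not remove RMRP, itself a short RNA of 264 bases, which is among the 9. PTPMT1, a mitochondrial phosphatase of cardiolipin synthesis, was at 14.2 FPKM with si4, 14.3 with si5, 14.0 for si1 and 7.43 for the control, which put si4 at 191% and si5 at 192%. MET, the receptor for hepatocyte growth factor, was at 12.8, 15.4, 15.9 and 8.05 FPKM. In both genes the 3 siRNA libraries lay above the control.

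ZEB1, a zinc finger repressor of epithelial genes, was at 6.14, 5.25, 5.01 and 3.33 FPKM with si4, si5, si1 and the control. TOMM20, a receptor of the mitochondrial outer membrane import complex, was at 193, 211, 217 and 123 FPKM and was the most abundant gene among the rises. LZTFL1, a regulator of ciliary trafficking, was at 9.26, 7.72, 7.80 and 4.99 FPKM. BANF1, which bridges chromatin and the nuclear envelope, passed by a smaller margin, with ratios of 1.54 and 1.55. So did RABGGTB, a subunit of the enzyme that prenylates Rab proteins, with ratios of 1.60 and 1.51. After the length and GC correction TOMM20, BANF1 and RABGGTB no longer passed with both siRNAs, whereas PTPMT1, MET, ZEB1 and LZTFL1 did.

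The largest of the 9 rises was in RMRP, the RNA component of the RNase MRP endonuclease, which is transcribed by RNA polymerase III. RMRP (chr9:35657748-35658015) was at 6.83 FPKM for si4 and 5.15 for si5, beside 6.36 for si1 and 2.24 for the control. These values stood in the proportion of 30, 32, 26 and 9 fragments, in libraries made from poly(A) RNA. The si4 ratio was 3.05 with an exact interval of 1.41 to 7.31, and the si5 ratio was 2.30 with an interval of 1.07 to 5.48. RPPH1, the RNA of the related enzyme RNase P, was at 1.63, 1.48 and 1.66 FPKM from 14, 18 and 13 fragments. Its ratios were 0.986 (0.430 to 2.28) and 0.896 (0.415 to 1.99), so a change of RPPH1 was not detectable at this depth. RMRP and RPPH1 thus differed in direction on the point estimates, with intervals that overlap. BCYRN1, at 230, 227 and 163 FPKM, was given in the table as a row of chrX:70430035-70948962 that spans several other genes, so its value cannot be taken as that of the short BC200 RNA. RNU6ATAC was listed at 0 with si4 and in the control and rested on 1 fragment with si5. RNY4 and RNY5, which encode Y RNAs, and all 4 genes of the vault RNA family in the list (VTRNA1-1 to VTRNA1-3, VTRNA2-1) were listed at 0 in all 4 libraries, which had been made from poly(A) RNA.

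Genes of other short RNAs were largely outside the reach of these libraries. Of 1698 such rows, 1565 were at 0 in all 3 libraries and 56 passed the limit, with 7 higher and 3 lower. The higher ones were SNORA61, SNORA21, SNORA1, SNORA31, SNORD15B, SNORD94 and MIR671. The control value of each of the 6 snoRNA genes, which guide modification of ribosomal and other RNAs, rested on 1 or 2 fragments, and MIR671 was at 0.00228 FPKM in the control, so no fold is given. Among the lower ones, SNORD97 rested on 8 fragments in the control, 2 with si4 and 1 with si5. Its intervals were 2.37% to 115% and 0.182% to 60.4% of the control, and that of si4 included the control level. SNORA65 and MIR3665 rested on 4 fragments each in the control.

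Gene groups were described by how many members were higher or lower with both siRNAs and by the median of the mean log2 ratio. Over all rows that median was -0.02, with quartiles of -0.20 and 0.13. Of all rows, 41.8% were lower and 34.7% higher with both siRNAs at any size. Past 1.5-fold, 1.63% were lower and 0.247% higher. Chromatin regulators held many of the falls. Of 114 measured members, 80 were lower with both siRNAs, 23 were higher with both and 14 passed 1.5-fold, all lower (12.3%, against 1.63% of all rows). The median was -0.14. Among the methyltransferases of the MLL and SET1 family, 12 of 14 were lower with both and 4 passed. SETD1B was at 1.27, 1.77 and 3.19 FPKM and MLL4 (now KMT2B) at 9.66, 9.55 and 16.6 FPKM with si4, si5 and the control. KDM6B, a demethylase of histone H3 lysine 27, was at 2.38, 2.64 and 4.73 FPKM. MLL2 and EP400, already described, were also among the 6 largest changes of the list. Members in the other direction included BMI1, a Polycomb ring finger protein, at 25.7, 31.4 and 21.3 FPKM, and ATRX, a remodeller of repeat chromatin, at 11.0, 10.9 and 8.22 FPKM, neither of which passed. The members were long, with a median transcript of 6042 bases, and once the median change of genes of like length and GC content was removed from each siRNA the list median was -0.02, with none past the limit.

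POLR2A differed in direction from most subunits of its complex. Of 12 RNA polymerase II subunits, 9 were higher with both siRNAs and POLR2A was 1 of 2 that were lower. In the whole list of 66 polymerase, Mediator and elongation genes, 31 were higher and 23 lower with both, and the median was 0.04. Of these 66, 2 passed 1.5-fold, both lower (3.03%, against 1.63% of all rows). The other was AFF1, a scaffold of the super elongation complex, at 3.80, 3.29 and 5.78 FPKM with si4, si5 and the control. After the correction for length and GC content POLR2A kept log2 ratios of -0.76 and -0.71 and was still past 1.5-fold with both siRNAs. Among 66 splicing factors, 34 were higher and 18 lower with both, and SRRM2 alone passed (1.52%, near the 1.63% of all rows). For the RNA polymerase III machinery, 18 of 28 genes were higher and 3 lower with both, with a median of 0.08 and none past the limit. Its most abundant members were POLR3K, a polymerase subunit, at 68.1, 68.1 and 56.0 FPKM, and MAF1, the repressor of this polymerase, at 60.4, 54.3 and 47.7 FPKM.

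Genes of the extracellular matrix and of cell adhesion were lower as a group. Of 86 measured, 70 were lower with both siRNAs and 5 higher, with a median of -0.30. Past 1.5-fold there were 4, all lower (4.65%, against 1.63% of all rows). HSPG2, the basement membrane proteoglycan perlecan, was at 0.955 FPKM with si4, 1.12 with si5 and 2.31 in the control. LAMA5, a laminin chain, was at 3.53, 4.55 and 7.33 FPKM. NID1, the basement membrane linker nidogen, was at 32.0, 24.3 and 48.2 FPKM. These are all basement membrane genes, a class in which 33 of 38 members were lower with both. CELSR1, a cadherin of planar cell polarity, was at 1.87, 2.64 and 3.97 FPKM, and its si5 ratio lay at the limit. Collagens had 15 of 17 members lower with both siRNAs and none past the limit. Corrected for length and GC content, the list median was -0.11 and HSPG2 alone was still past 1.5-fold.

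All 3 measured NOTCH receptor genes were lower with both siRNAs and 2 passed. NOTCH2 was at 7.26, 6.38 and 12.5 FPKM and NOTCH1 at 1.15, 1.12 and 1.93 FPKM with si4, si5 and the control. Over the whole Notch list, 20 of 28 genes were lower with both. The median was -0.15, or -0.07 after the correction for length and GC content. NOTCH1 and NOTCH2 were its only members past 1.5-fold (7.14%, against 1.63% of all rows). In the Hedgehog pathway 9 of 11 genes were lower with both and the median was -0.34, or -0.10 after the correction. The 2 past 1.5-fold were 18.2% of these 11 genes, against 1.63% of all rows. GLI2 and GLI3, transcription factors at the end of that pathway, were at 0.901, 0.958 and 1.66 FPKM and at 3.19, 3.26 and 5.16 FPKM. GLI2 reached 1 FPKM only in the control, so it entered the list through the library where it was high. No NOTCH or GLI gene was past the limit after the correction.

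In axon guidance 38 of 57 genes were lower with both siRNAs, the median was -0.26 and 3 passed (5.26%, against 1.63% of all rows). After the correction 28 were lower with both and the median was -0.08. SLIT3, a secreted repellent, was at 0.605, 0.662 and 1.27 FPKM with si4, si5 and the control, and reached 1 FPKM only in the control. Its receptor relative ROBO2 was at 1.54, 1.59 and 2.38 FPKM, a ratio just past the limit. PLXNA2, a semaphorin receptor, was at 1.81, 1.88 and 3.00 FPKM. NTN1, which encodes the guidance cue netrin, differed from these in direction, at 8.57, 8.97 and 6.19 FPKM, without passing, and was past 1.5-fold upward after the length and GC correction. For the Wnt pathway 35 of 54 genes were lower with both, with a median of -0.16 (-0.10 corrected) and none past the limit, and its most abundant members, CTNNB1 (beta-catenin, at 93.4, 81.4 and 85.7 FPKM) and GSK3A (at 85.8, 78.5 and 81.6 FPKM), were near the control. For TGF-beta and BMP signalling 24 of 40 were lower with both, with a median of -0.11 (-0.07 corrected) and none past the limit. The abundant targets ID2, at 125, 128 and 122 FPKM, and ID4, at 69.5, 76.9 and 70.2 FPKM, were near the control as well.

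HOX genes, which set position along the body axis, were lower in 31 of 36 cases with both siRNAs, with a median of -0.23. HOXC8 alone passed (2.78% of the list, against 1.63% of all rows), at 6.23, 7.19 and 11.0 FPKM with si4, si5 and the control. Their transcripts were short, with a median of 1989 bases, and the corrected list median was -0.27. HOX genes were thus 1 of the lists whose median did not move toward 0 with the correction. Among 113 other developmental transcription factors, 82 were lower and 15 higher with both, with a median of -0.21 and a corrected median of -0.11. PAX2, a kidney lineage factor, was at 0.584, 0.615 and 1.16 FPKM and FOXJ2, a forkhead factor, at 3.33, 3.14 and 5.14 FPKM. FOXQ1, another forkhead factor, was at 1.30, 1.46 and 2.23 FPKM. ZEB1 was the only member past the limit upward. PAX2, which reached 1 FPKM only in the control, was also the only member to pass among 17 measured HEK-293 identity genes (5.88%, against 1.63% of all rows). The other 4 measured kidney genes of that list, LHX1, EYA1, SALL1 and WT1, were lower with both siRNAs without passing. SALL1 came nearest, at 5.74, 4.42 and 6.64 FPKM with si4, si5 and the control, which passed 1.5-fold with si5 alone.

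Groups of short, abundant transcripts were higher, by small amounts. Of 78 cytosolic ribosomal protein genes, 77 were higher with both siRNAs and none lower, with a median of 0.31 and quartiles of 0.26 and 0.38. RPS18 was at 5769 FPKM for si4 and 5857 for si5, beside 5686 for si1 and 4834 for the control, and RPS2 at 5140, 5524, 4736 and 4083. Neither passed 1.5-fold, and no ribosomal protein gene did. Of 78 genes of oxidative phosphorylation 73 were higher with both and none lower, with a median of 0.25. COX7C and COX6B1, subunits of cytochrome c oxidase, were at 1249, 1183 and 957 FPKM and at 962, 986 and 719 FPKM with si4, si5 and the control.

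Mitochondrial ribosomal proteins, with 62 of 76 higher with both, had a median of 0.22, and their most abundant members MRPL51 and MRPS34 had log2 ratios of 0.19 and 0.27 and of 0.28 and 0.18. Proteasome genes were higher with both in 32 of 34 cases, with a median of 0.23. PSMD8, of the regulatory particle, was at 355, 371 and 313 FPKM and PSMA4, of the core, at 312, 289 and 237 FPKM with si4, si5 and the control. After removal of the median change of genes of like length and GC content the medians were 0.19 for cytosolic ribosomal proteins, 0.11 for oxidative phosphorylation, 0.14 for the proteasome and 0.09 for mitochondrial ribosomal proteins. The si1 library gave medians of 0.25, 0.26, 0.30 and 0.26 for these lists against the same control.

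**Figure D3:**
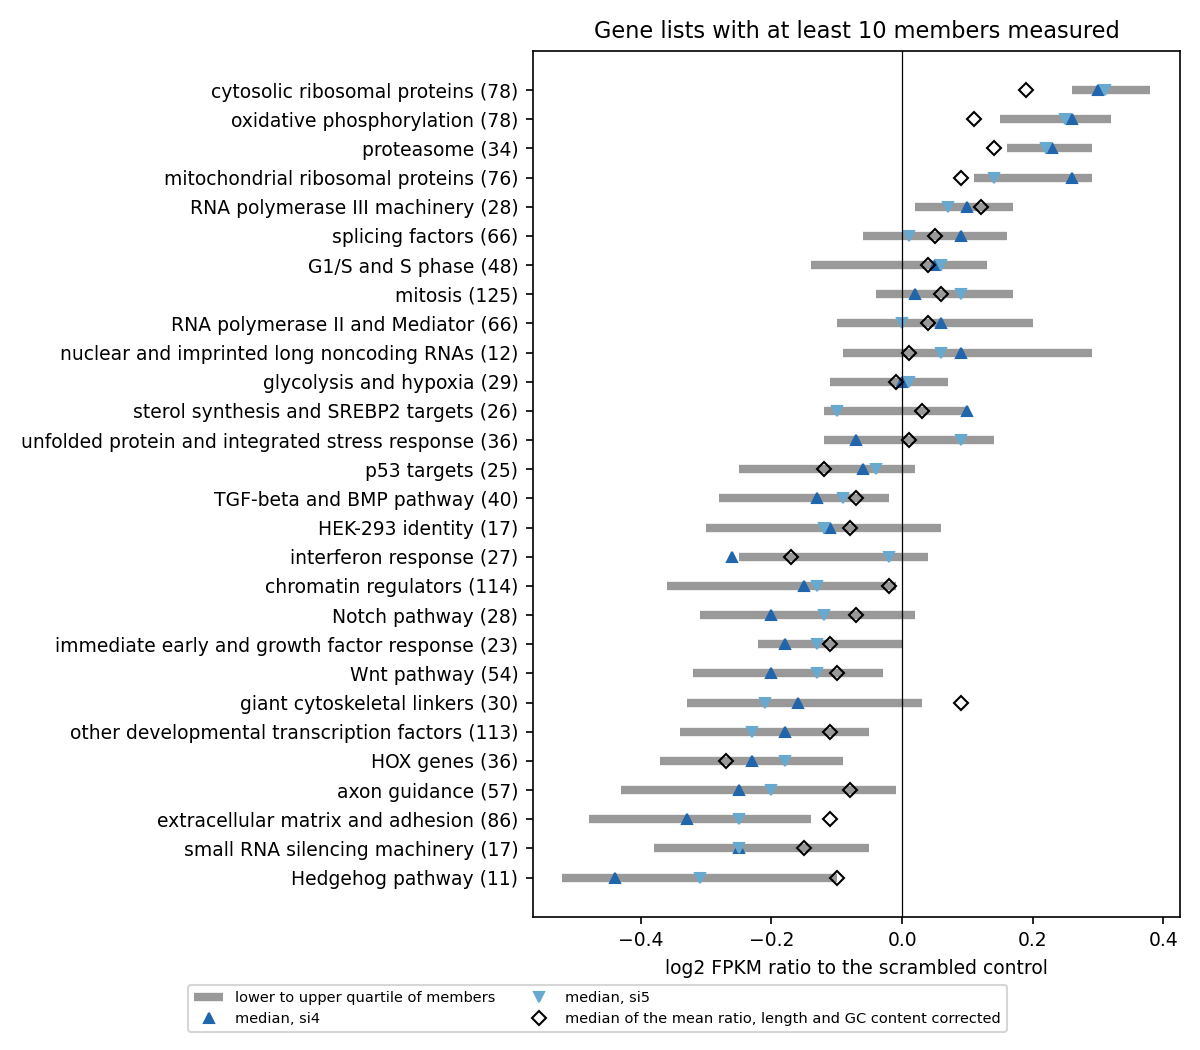
Median log2 FPKM ratio to the control with si4 and si5 for each gene list with at least 10 measured members (number in brackets), with bars from the lower to the upper quartile of the members' mean ratio and open diamonds for the median after correction for transcript length and GC content. Both medians of the cytosolic ribosomal protein, oxidative phosphorylation and proteasome lists lie from 0.22 to 0.31, those of the Hedgehog list lie at -0.44 and -0.31 and those of the matrix list at -0.33 and -0.25, and each of these 5 lists lies nearer 0 after the correction.

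Mitotic genes showed no shared change past the limit. Of 125 measured, 63 were higher and 26 lower with both siRNAs, with a median of 0.05 and none past 1.5-fold. The abundant ubiquitin enzyme gene UBE2S was at 299, 294 and 254 FPKM and securin, PTTG1, at 226, 232 and 203 FPKM with si4, si5 and the control. By role, 5 of 7 spindle checkpoint genes and 11 of 15 cohesin genes were higher with both, with medians of 0.11 and 0.19, whereas 7 of 10 mitotic kinase genes were lower with both, with a median of -0.14. CENPE, a kinetochore motor, was at 8.89, 9.78, 5.95 and 6.41 FPKM with si4, si5, si1 and the control, so here si1 lay with the control. The cohesin subunit STAG2 was at 58.3, 58.8, 55.9 and 40.5 FPKM. Of 48 genes of G1/S and S phase 24 were higher and 14 lower with both, with a median of 0.05. PCNA, the replication clamp, was at 325, 327 and 339 FPKM and the helicase subunit gene MCM7 at 225, 221 and 207 FPKM.

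Of 25 targets of p53, 14 were lower with both siRNAs and 2 passed, both lower, with a median of -0.07 and a corrected median of -0.12. TP53INP1, an autophagy and apoptosis factor, was at 4.53, 4.27 and 7.17 FPKM with si4, si5 and the control, with 5.99 for si1. POLH, a translesion DNA polymerase, was at 2.59, 3.14 and 4.78 FPKM and no longer passed after the length and GC correction. Interferon response genes, which double-stranded RNA can induce, had 6 of 27 higher and 14 lower with both and none past the limit. Their median was -0.13 (-0.17 corrected), with -0.26 for si4 alone and -0.02 for si5 alone. IRF3, a transcription factor of the pathway and an abundant member, was at 34.9, 29.8 and 27.9 FPKM with si4, si5 and the control. In the small RNA silencing machinery, which the siRNAs themselves use, 13 of 17 genes were lower with both, with a median of -0.34 and a corrected median of -0.15. TNRC6C, a partner of Argonaute, was at 2.04, 2.22 and 3.44 FPKM and alone passed (5.88% of the list, against 1.63% of all rows).

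Immediate early genes had a median of -0.16 (-0.11 corrected), with 13 of 23 lower with both and none past the limit, and JUN was at 54.9, 55.8 and 63.7 FPKM and IER5 at 31.2, 34.6 and 32.8 FPKM with si4, si5 and the control. The median of the unfolded protein and integrated stress response list was -0.07 with si4 and 0.09 with si5, and its factor ATF4 and chaperone HSP90B1 had ratios of 1.04 and 1.07 and of 1.12 and 1.04. The median of the sterol list was 0.10 with si4 and -0.10 with si5, with HMGCS1 at 156, 151 and 165 FPKM. INSIG1, a feedback protein of sterol synthesis, was at 120, 154, 116 and 196 FPKM with si4, si5, si1 and the control. Glycolysis and hypoxia genes had a median of 0.01, and GAPDH and LDHB were at 3384, 3537 and 2905 FPKM and at 1203, 1148 and 899 FPKM with si4, si5 and the control. The list of nuclear and imprinted long noncoding RNAs, which also holds snoRNA host genes, had a median of 0.03. Its most abundant members were the host genes SNHG5, at 417, 374 and 306 FPKM, and SNHG8, at 372, 339 and 282 FPKM. Giant cytoskeletal linkers had a median of -0.18, which became 0.09 after the correction for length and GC content, and their most abundant members were FLNA (81.8, 80.5 and 76.4 FPKM) and MYH10 (53.5, 43.4 and 52.0 FPKM). No member of these 6 lists passed 1.5-fold.

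The lower rows shared features that the fold limit did not use. Annotated transcripts were found for 87.7% of the lower rows, 81.2% of the higher rows and 96.1% of all rows. The median transcript length was 5439 bases for lower rows, 930 for higher rows and 3303 for all rows. Lower rows had a median of 14 exons against 9 for all rows, a median GC content of 54.9% against 48.2%, and a median 3′ UTR of 2021 bases against 1362. The median control level was 3.44 FPKM for lower rows, 1.43 for higher rows and 10.0 for all rows. GLI2, SLIT3 and PAX2 reached 1 FPKM in the control alone, and such rows can be counted only as lower. The median log2 ratio fell with length, from 0.17 for transcripts of 300 to 1000 bases to -0.14 for those over 12000 bases. The share of lower rows was 0.407% among transcripts of 2000 to 3000 bases and 6.48% among those over 12000 bases. The si1 library gave 0.18 and -0.17 in the same end bins against the control, whereas the direct ratio of si4 to si5 moved only from 0.03 to -0.01. The dependence on length was thus seen in the comparisons that contain the control library and was near absent between the siRNA libraries. A shared response to these siRNAs and a property of the 1 control library cannot be told apart. With the length and GC correction 94 rows were lower, 73 of them among the 211, and 25 were higher, 18 of them among the 32. By chromosome the share of lower rows ran from 0 of 124 rows on chromosome 21 to 2.93% of 682 rows on chromosome 12.

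**Figure D4:**
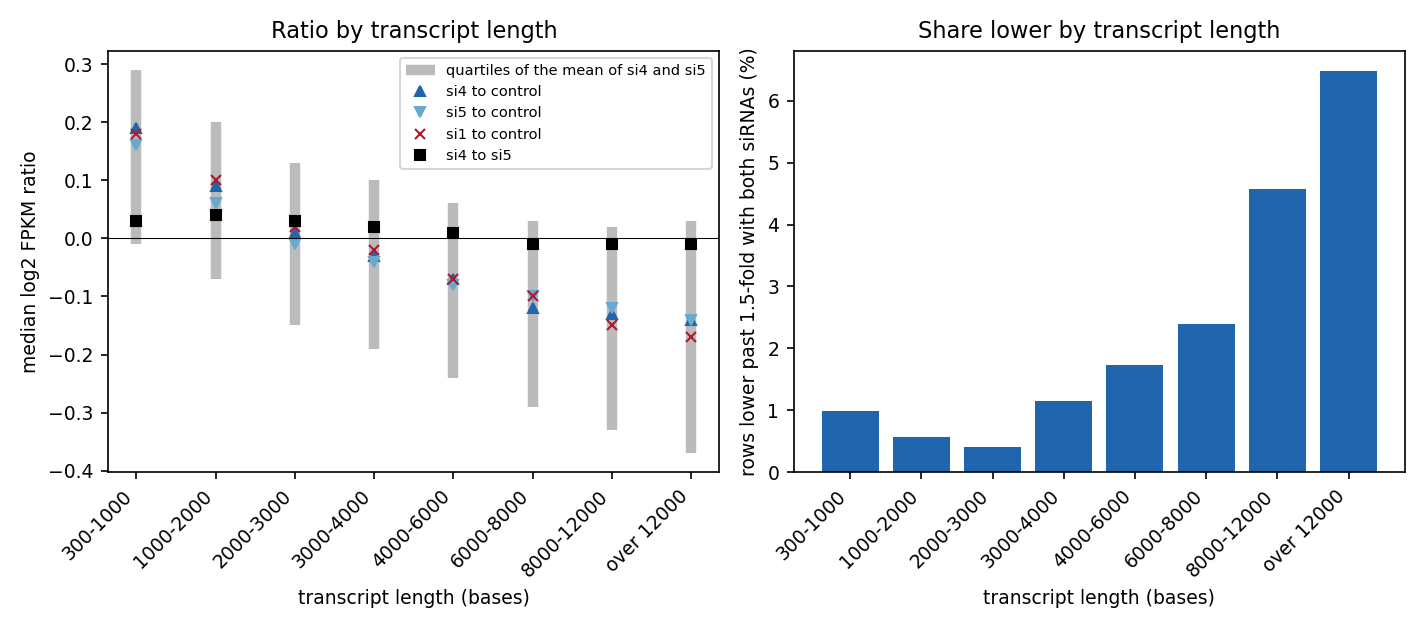
Left, median log2 FPKM ratio by annotated transcript length for si4, si5 and si1 against the control and for si4 against si5, with grey bars from the lower to the upper quartile of the mean of si4 and si5. Right, percentage of rows lower past 1.5-fold with both siRNAs. The 3 ratios to the control fall together from about 0.17 to -0.14, the ratio of si4 to si5 stays between -0.01 and 0.04, and the share of lower rows reaches 6.48%.

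Direct comparison of the siRNAs, which does not involve the control, showed where the reagents differed. The genes in this paragraph were chosen after their values were seen. Among 9380 rows that reached 5 FPKM, short RNAs left out, 91 were lower with si4 than with si5 by more than 1.5-fold and 38 were higher. PTBP2, the neuronal relative of the splicing repressor PTB, was at 20.1 FPKM for si4 and 5.17 for si5, beside 5.20 for si1 and 5.11 for the control. MAPK8IP2, a scaffold of JNK signalling, and SCAMP5, a secretory carrier membrane protein, both typical of neurons, were at 10.8, 4.95, 5.12 and 4.54 FPKM and at 6.80, 3.72, 4.36 and 3.44 FPKM. STMN3, a neuronal stathmin, was at 37.6, 18.2, 22.9 and 13.7 FPKM. In these 4 genes the si4 library was the highest of the 4 libraries. PTBP1, which represses PTBP2 splicing, was at 86.2 FPKM for si4 and 116 for si5, beside 126 for si1 and 139 for the control. CCND1, which encodes cyclin D1, was at 7.09, 18.0, 22.4 and 24.7 FPKM, and CDK6, a partner kinase, was lowest with si5, at 10.6, 6.26, 7.76 and 14.5 FPKM. STK38L, a kinase gene, was lower with si5 only, at 12.7, 5.77, 12.7 and 11.9 FPKM.

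Transcripts with a seed match in the 3′ UTR differed between the siRNAs in the direction of the matching reagent. The si4 seed shown above pairs with ACGTGTA and the si5 seed with ACAAGAG, searched on the transcript strand only. Of 12045 protein-coding rows with an annotated 3′ UTR, 3.36% held the si4 match and 12% the si5 match. The median log2 ratio of si4 to si5 was -0.19 for the 309 rows with the si4 match alone, 0.06 for the 1346 rows with the si5 match alone and 0.02 for the 10294 rows with neither. Of the rows with the si4 match alone, 13.9% were lower with si4 than with si5 by more than 1.5-fold and 0 were higher, against 1.14% and 0.534% of rows with neither. Among the rows chosen above, STK38L held 3 si5 matches, whereas CCND1 and PTBP2 held neither match. Rows lower past 1.5-fold with both siRNAs were 1.62% of those with the si4 match alone. They were 2.30% of those with the si5 match alone and 1.33% of those with neither. A match is a description of the sequence and was not tested as a site.

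**Figure D5:**
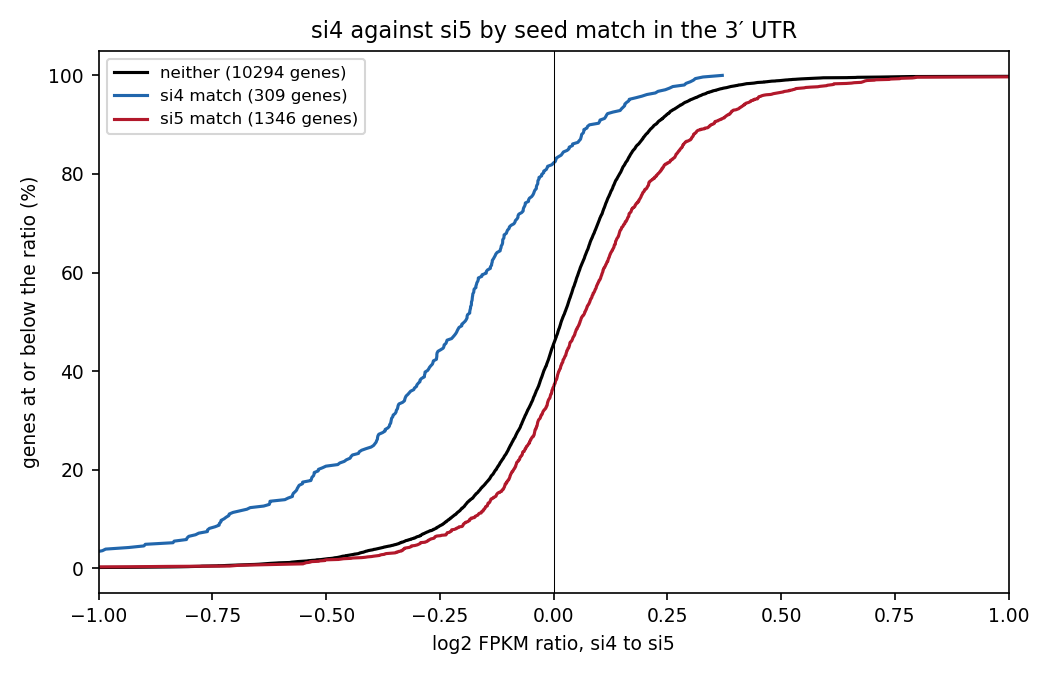
Cumulative percentage of genes by log2 FPKM ratio of si4 to si5, for protein-coding genes whose 3′ UTR holds the si4 seed match alone (309), the si5 match alone (1346) or neither (10294). The si4 curve lies to the left, with a median of -0.19, and the si5 curve slightly to the right, with a median of 0.06.

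The si1 library gives the values of the same genes without a ZSCAN5A siRNA, against the same control. Over the 211 lower rows its median log2 ratio to the control was -0.66, beside -0.79 for the mean of si4 and si5, and over the 32 higher rows it was 0.64, beside 0.84. These comparisons share the control. Set against si1 in place of the control, 14 of 12957 rows were lower past 1.5-fold with both ZSCAN5A siRNAs (0.108%) and 43 were higher (0.332%). Of the 211 lower rows, 4 were among these, ZSCAN5A, NBPF16, RBP4 and FLJ42351. RBP4, the plasma carrier of retinol, was at 1.08 FPKM for si4 and 1.24 for si5, beside 2.42 for si1 and 1.89 for the control. NBPF16, of a family of near-identical copies, was at 0.965, 0.755, 1.63 and 2.32 FPKM. Of the 32 higher rows, 5 were among them, DYNLRB2, FAM21B, SNORA1, SNORA21 and SNORD94. DYNLRB2, a dynein light chain gene, was at 1.79, 1.95, 1.05 and 1.18 FPKM with si4, si5, si1 and the control. FAM21B was at 0.00164 FPKM with si1 and 0.00109 in the control, where no fold is given.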

How the data were processed

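The 4 mRNA libraries of HEK-293 cells (si4, si5, si1 and a scrambled control, 1 each) were analysed as 1 deposited table of FPKM values per gene. The authors processed the reads with TopHat2 2.1.0 and Cufflinks 2.2.1 on hg19. CASAVA 1.8.2 and Trimmomatic 0.30 are also named in the submitters' processing notes. The labels and the paper name different library kits, both for stranded mRNA, and FPKM was scaled by the authors to transcript length and library size. The table held 0 other columns of per-sample values.

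FPKM was used as deposited, without a pseudocount, and ratios of si4 and of si5 to the control had to pass 1.5-fold in the same direction. Where a symbol stood on more than 1 row, as for 543 symbols, each row was kept, and lists used the most abundant. Fragments were read from low FPKM values that stood in whole-number proportions of at most 60 within 0.05%, which held for 67.0% of 3007 rows, and relative depth came from the same steps. Other fragment numbers were approximated from FPKM, GENCODE transcript length and depth, and the intervals drawn from them are approximate too. A control value of 3 fragments or fewer gave no fold. Transcript length, GC content and 3′ UTRs came from GENCODE release 44 lifted to GRCh37. The siRNA targets came from the paper's supplement.

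Named genes were ZSCAN5A and its paralogs, RNA polymerase III transcripts, the 12 largest falls and rises of at least 5 FPKM by the smaller of the 2 absolute log2 ratios (short RNA genes left out), and in each of 30 lists the called members (at most 6) or else the 2 most abundant. Of the genes named by this rule, 3 are not reported here. Other list members in the text (BMI1, ATRX, NTN1, CENPE, STAG2, LHX1, EYA1, SALL1, WT1, KRT8, NEFL and COL1A1) fall outside the rule and were chosen after their values were seen. Genes, lists and the comparison were chosen with earlier results of these data known. Alternatives were median-ratio and upper-quartile scaling, added pseudocounts, other expression and fold limits, rows left out, each siRNA singly, and a correction by the median change in 10 length by 5 GC groups. Use of the si1 library as reference was added after seeing the data. The fold rule was tested on simulated data. Python 3.11.15 was used with numpy 2.4.6, pandas 2.3.3, scipy 1.17.1 and matplotlib 3.10.9.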

Additional observations from a re-analysis of the deposited data

How the results depend on the processing

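The count of rows lower past 1.5-fold with both siRNAs was 211 and that of rows higher was 32. They became 71 and 16 with 1 FPKM added, 81 and 16 with a limit of 5 FPKM, 820 and 343 without an expression limit, 1049 and 308 when a ratio under 0.8 (or over its inverse) was enough, 15 and 8 at 2-fold, 379 and 75 when the mean of si4 and si5 had to pass, and 14 and 43 against the si1 library. With 1 siRNA alone they ranged from 376 to 674 lower and from 74 to 147 higher. Correction for length and GC content left 94 lower rows and 25 higher. Scaling, 0.1 FPKM added, and leaving out repeated symbols or short RNAs kept both counts within 1.5 times. Of 44 named genes past the limit, 24 remained past it with 1 FPKM added. After the length and GC correction 16 of the 42 with annotation remained, among them ZSCAN5A, POLR2A, BCL2L11 and RMRP. The 26 no longer past it included MLL2, SRRM2, EP400, RERE, PRR12, TOMM20, BANF1 and RABGGTB. None of these named genes past the limit changed sign under the alternatives run for them (scaling, pseudocount, length and GC content, each siRNA alone). Named genes near the control could change sign, as MYH10 did, with a mean log2 ratio of -0.11 and of 0.12 after the length and GC correction. Of 30 list medians, 27 to 30 kept their sign under each alternative.

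With 1 control library and no replicates, every ratio to the control carries the unknown spread of that library. The si4 and si5 gap covers both reagent and library differences. No paired analysis was possible because each treatment had 1 library.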
